A study of Rattus norvegicus with 2 samples.

Results

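The cells described here were fibroblasts of the rat optic nerve in which Cldn11, Thbd, Nkd2 and Tgm2 stood out together, and they are called Cldn11 type cells. Their members were chosen by measured expression. A cell entered when it had at least 500 detected genes and at most 20% mitochondrial molecules (unique molecular identifiers, UMIs), when Col1a1, Col3a1, Dcn and Lum summed to at least 500 counts per 1000000 UMIs of the cell (CPM), and when astrocyte genes (Gfap, Fabp7, Aqp4) and cell division genes (Top2a, Mki67, Ube2c, Cenpf) summed to less than 500 and 300 CPM. These fibroblasts were sorted by 4 scores of 4 genes each, every score being the mean z-score of its genes, and each cell took the type of its highest score. The other 3 types are named here by the first gene of their score: the Ccn3 type (Ccn3, Rspo3, Tnmd, Cpxm2), the Actg2 type (Actg2, Penk, Car3, Mfap5) and the Inmt type (Inmt, Cyp26b1, Gjb2, Vcam1). The Cldn11 type held 785 of the 2772 fibroblasts sorted, out of 4036 cell barcodes in both libraries.

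Single-cell RNA was sequenced from the optic nerve of rats at postnatal day 7, with 1 library from wild type (WT) rats and 1 from Nuc1 rats, which carry a spontaneous insertion in Cryba1, the gene of the βA3/A1-crystallin. The study made the libraries to profile astrocytes, in which it followed the PTP1B and STAT3 pathway; the fibroblasts came with them. The series' title and the paper name mixed primary cultures of optic nerve cells, while the deposited design names digested nerves; no treatment is given for either genotype, and the number of animals behind a library is not given in the sources used here. The WT library held 34517542 UMIs in 2107 barcodes and the Nuc1 library 35794685 in 1929 barcodes. With 1 library per genotype there is no replicate and no test; genotype and library cannot be told apart, and every interval below covers counting error only. Cryba1 itself had 0 UMIs in the Cldn11 type cells of both libraries, so the genotype labels could not be checked against it.

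The optic nerve is wrapped by the same membranes as the brain: dura outside, arachnoid in the middle and pia against the nerve. Fibroblasts of the arachnoid form a barrier layer whose cells are joined by tight and adherens junctions, and claudin-11, the product of Cldn11, is a strand-forming protein of that barrier as well as of central myelin. Thrombomodulin, the product of Thbd, binds thrombin at cell surfaces and turns it towards activation of the anticoagulant protein C. Nkd2 encodes a Wnt pathway inhibitor of the naked cuticle family, and Tgm2 a transglutaminase that cross-links proteins of the cell and its matrix.

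Among the 4 genes of the score, Cldn11 and Nkd2 have an upstream sequence in the RefSeq promoter table used here. The 250 bases before each start are printed because these genes define the cells, with the GC box GGGCGG, a motif bound by Sp and Krüppel-like factors, searched on both strands and set in capitals. The sequences are of the rat build GRCr8 and run 5′ to 3′ on the strand of the gene: Cldn11 at chr2:114149540-114149789 on the minus strand, and Nkd2 at chr1:31272282-31272531 on the plus strand.
Cldn11: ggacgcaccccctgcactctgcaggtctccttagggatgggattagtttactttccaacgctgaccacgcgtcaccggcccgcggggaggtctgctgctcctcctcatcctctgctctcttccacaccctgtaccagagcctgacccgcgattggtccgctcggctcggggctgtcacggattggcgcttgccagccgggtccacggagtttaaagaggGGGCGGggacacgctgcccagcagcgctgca
Nkd2: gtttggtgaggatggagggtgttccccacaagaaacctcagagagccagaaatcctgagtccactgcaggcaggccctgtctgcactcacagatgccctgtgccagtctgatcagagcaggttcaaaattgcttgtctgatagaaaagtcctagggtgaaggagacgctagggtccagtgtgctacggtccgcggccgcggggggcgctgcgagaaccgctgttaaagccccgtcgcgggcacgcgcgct
The Cldn11 window held 1 GC box, which began 31 bases before the start, and the Nkd2 window held 0. Of all 33469 windows of this length in the table, 30.5% held the motif on either strand. The TCF/LEF core CTTTGA, which 13.9% of all windows hold on either strand, was in neither of these windows.

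Fibroblast genes were abundant in the Cldn11 type cells, which the rule required of their sum. Col1a1 was at 4542 CPM in WT and 2163 in Nuc1, Col3a1 at 2812 and 2038, Dcn at 2094 and 957.6, and Lum at 1067 and 458.8. Pdgfra, a growth factor receptor of fibroblasts that the rule did not use, was at 99.2 CPM in WT and 200.4 in Nuc1. Because Cldn11 also marks oligodendrocytes and Thbd endothelial cells, the markers of those cells were looked up in full. Of the 14 oligodendrocyte markers, 6 (Mag, Mobp, Sox10, Opalin, Ugt8, Gjc3) had 0 UMIs in the Cldn11 type cells of both libraries, and Mbp, a main protein of myelin, had 4 UMIs in WT and 1 in Nuc1. The whole list summed to 123 CPM in WT and 180.3 in Nuc1, most of it from Cnp and Enpp2; Enpp2, which encodes autotaxin, was at 57.9 and 107 CPM. The 11 endothelial markers counted summed to 32.7 CPM in WT and 24.75 in Nuc1, with Tek the most abundant and Tie1 at 0, and Cdh5 had 14 and 15 UMIs. Macrophage and microglia markers summed to 33.3 and 30.45 CPM, most of it Cd14, and Ctss had 0 UMIs.

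The 4 genes of the score were at their highest in the Cldn11 type cells of both libraries, which follows from the choice of cells and is given as a description. Cldn11 was at 923 CPM in WT (95% interval 896.5 to 949.5) and 821 in Nuc1 (801.2 to 840.4), against 463 and 364 CPM in the Inmt type, 402 and 278.5 in the Ccn3 type and 244 and 88.5 in the Actg2 type. Thbd was at 439 CPM in WT and 353 in Nuc1, and its next highest level was in the Ccn3 type at 178 and 269.7 CPM. Nkd2 was at 215 CPM in WT and 82.5 in Nuc1. Its next highest level was 72.7 CPM in the Ccn3 type of WT, but 41.2 in the Inmt type of Nuc1. Tgm2 was at 104 CPM in WT and 335 in Nuc1, ahead of the Ccn3 type at 44.8 and 138. Cldn11 was thus at no less than 88.5 CPM in any type, and none of the 4 genes was confined to these cells. In the 392 WT and 597 Nuc1 cells that passed the quality filter but not the rule's other limits, Cldn11 was at 218 and 87.7 CPM. Of these cells, 180 and 84 met the limits on collagen and astrocyte genes and were left out by the limit on cell division genes alone.

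**Figure D1:**
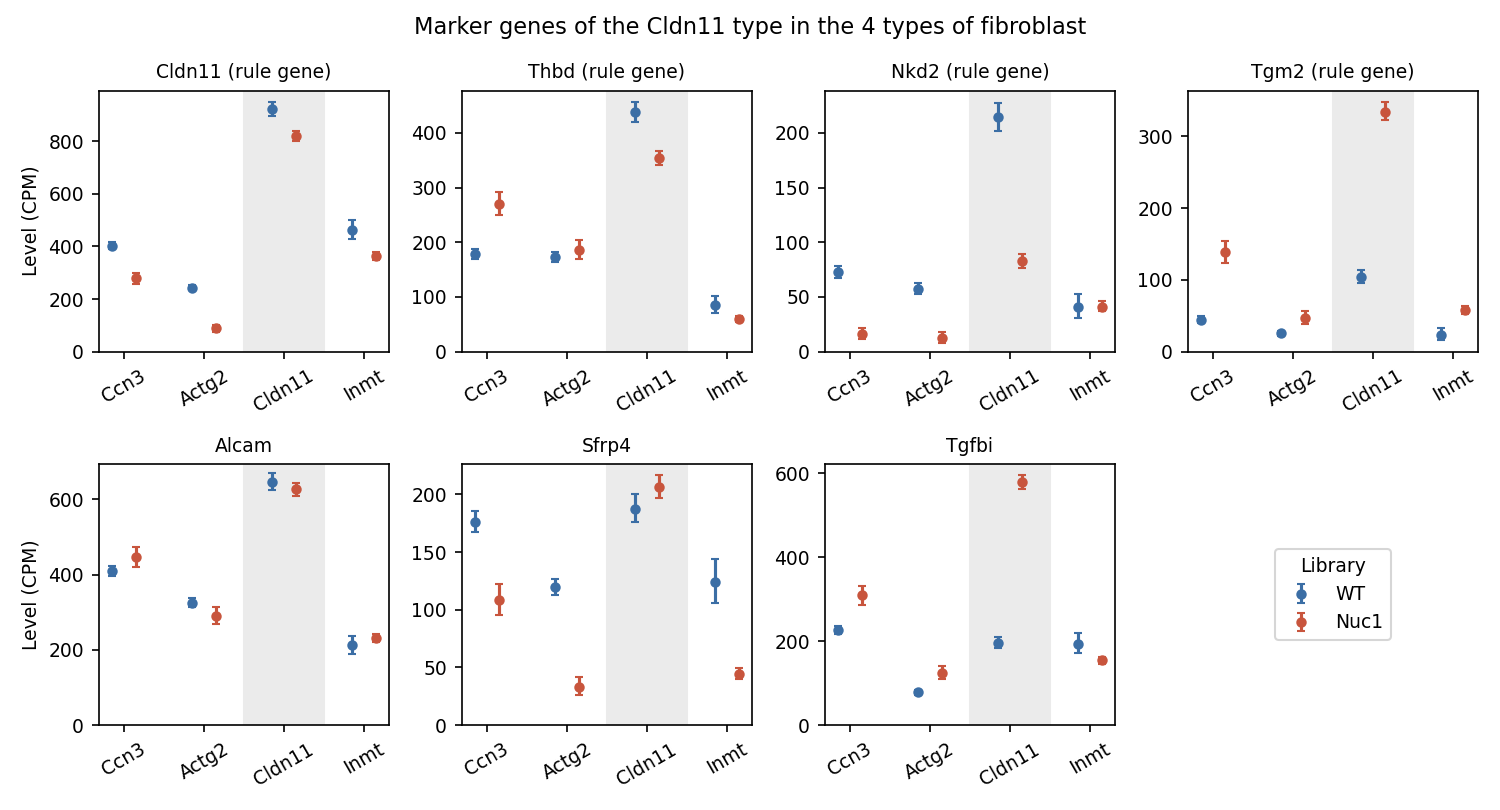
Level in CPM (vertical axes, from 0, each panel on its own scale) of the 4 score genes and 3 further marker genes in the 4 types of fibroblast (horizontal axes), for the WT (blue) and the Nuc1 (red) library; points are sums over the cells of a type and bars are exact 95% Poisson intervals. The grey band marks the Cldn11 type, where each gene peaks except Tgfbi in WT (196 CPM, against 226 in the Ccn3 type).

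Of 3 further genes set as markers of these cells, 2 were highest in them in both libraries. Alcam, an immunoglobulin-family adhesion molecule, was at 647 CPM in WT and 627 in Nuc1, ahead of the Ccn3 type at 410 and 447. Sfrp4, which encodes a secreted Wnt-binding inhibitor, was at 188 CPM in WT and 207 in Nuc1, where the Ccn3 type had 176 and 109; in WT the intervals of these levels overlapped (175.9 to 200 and 167.8 to 185.2). Tgfbi, which encodes a matrix protein induced by TGF-beta, was highest in the Cldn11 type in Nuc1, at 579 CPM against 309 in the Ccn3 type. In WT it was not, at 196 CPM against 226 in the Ccn3 type and 194 in the Inmt type.

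When each score gene was left out of the score in turn and the cells sorted again, the gene left out was a measure that the sorting had not used directly. Cldn11 was then at 799 CPM in the WT cells so chosen and 717 in the Nuc1 cells, against next highest levels of 529 in the Inmt type of WT and 433 in the Ccn3 type of Nuc1. Nkd2, left out, was at 181 CPM in WT and 71.1 in Nuc1, against 84.5 in the Ccn3 type and 45 in the Inmt type. Tgm2, left out, was at 80.7 and 308 CPM, against 49.7 and 208 in the Ccn3 type. Thbd kept its place in WT, at 361 CPM against 204.5 in the Ccn3 type, and lost it in Nuc1, at 312 CPM against 338 in the Ccn3 type, with intervals of 300 to 325 and 316 to 360. So 7 of these 8 comparisons left the Cldn11 type cells highest, and the exception was Thbd in Nuc1. Most cells so chosen were also chosen by all 4 genes, with Tgm2 left out 277 of 361 in WT and 397 of 412 in Nuc1. The score genes were set with earlier results of these data known, so this count is a description and no independent check.

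The type is set by its highest score, and part of its cells lay close to the limit. Whether the cells form a separate cluster was not tested. In WT, 92 of the 290 cells (31.7%) led their next score by less than 0.25, and 118 fibroblasts of the other types missed the Cldn11 type by less than that; in Nuc1, 98 of 495 (19.8%) were as near, and 80 had just missed. Cldn11 was at 743 CPM in the WT cells just inside and 648 in those just outside, and at 499 and 355 CPM in Nuc1. Tgm2 was at 74.2 and 63.4 CPM inside and outside in WT and at 211 and 141 in Nuc1. At the other end, 125 WT cells (43.1%) and 298 Nuc1 cells (60.2%) led by 0.5 or more, with Cldn11 at 1116 and 977.9 CPM. The score next in line was most often that of the Ccn3 type in WT (131 cells) and that of the Inmt type in Nuc1 (266 cells). UMIs of all 4 genes were found in 153 of the WT cells and 177 of the Nuc1 cells, of exactly 3 in another 109 and 240, and of a lone gene in 2 and 4 cells.

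Genes of the other scores were present at varied levels. Medians over cells are given per 10000 UMIs of the cell. Ccn3, a matricellular CCN protein gene, had a median of 11.35 in the WT cells and 2.61 in the Nuc1 cells, and was detected in 93.8% and 74.55% of them. Tnmd, the tenomodulin gene of tendon and ligament, had medians of 1.765 and 1.02, and Cpxm2, of the same score, 0.696 and 0.517. Penk, which encodes the enkephalin precursor, had 1.875 and 0, and Mfap5, which encodes a microfibril protein of elastic fibres, 1.67 and 0. Gjb2, a connexin gene of the Inmt score, had 0.292 and 0.644. Actg2, Car3, Rspo3, Inmt, Cyp26b1 and Vcam1 had medians of 0 in both libraries, and Inmt was found in 1 of 290 WT cells and 20 of 495 Nuc1 cells. For comparison, the medians of Cldn11 were 6.99 and 7.035, of Thbd 3.18 and 2.85, of Nkd2 1.91 and 0.355 and of Tgm2 0.785 and 2.91. The Cldn11 type cells of WT thus had higher medians of Ccn3, Tnmd, Cpxm2, Penk and Mfap5, and those of Nuc1 a higher median of Gjb2.

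The share of Cldn11 type cells among the fibroblasts sorted was 18.4% in WT (290 of 1576, 95% binomial interval 16.5 to 20.4) and 41.4% in Nuc1 (495 of 1196, 38.6 to 44.2). The Inmt type was also more frequent in Nuc1, at 38.2% against 5.71%. The Ccn3 type was less frequent, at 12.7% against 42.0%, and so was the Actg2 type, at 7.69% against 33.9%. The difference in the share of Cldn11 type cells depended on how the scores were scaled: with z-scores taken within each library instead of over both, the shares were 26% and 28.3%. Such scaling gives each score gene the same mean in both libraries, so it can draw the shares together even where the make-up differs. The difference also depended on Tgm2, since leaving that gene out of the score gave 22.9% and 34.4%. The share describes the rule and these 2 libraries. Fibroblasts were 80.1% of the WT cells that passed the quality filter and 66.7% of the Nuc1 cells. Cldn11 type cells had a median of 13808.5 UMIs in WT and 14356 in Nuc1, and medians of 3621.5 and 3616 genes. Their mitochondrial share had a median of 9.68% and 9.63%. The libraries shared 2 barcodes, and both belonged to the Cldn11 type in at least 1 of them.

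**Figure D2:**
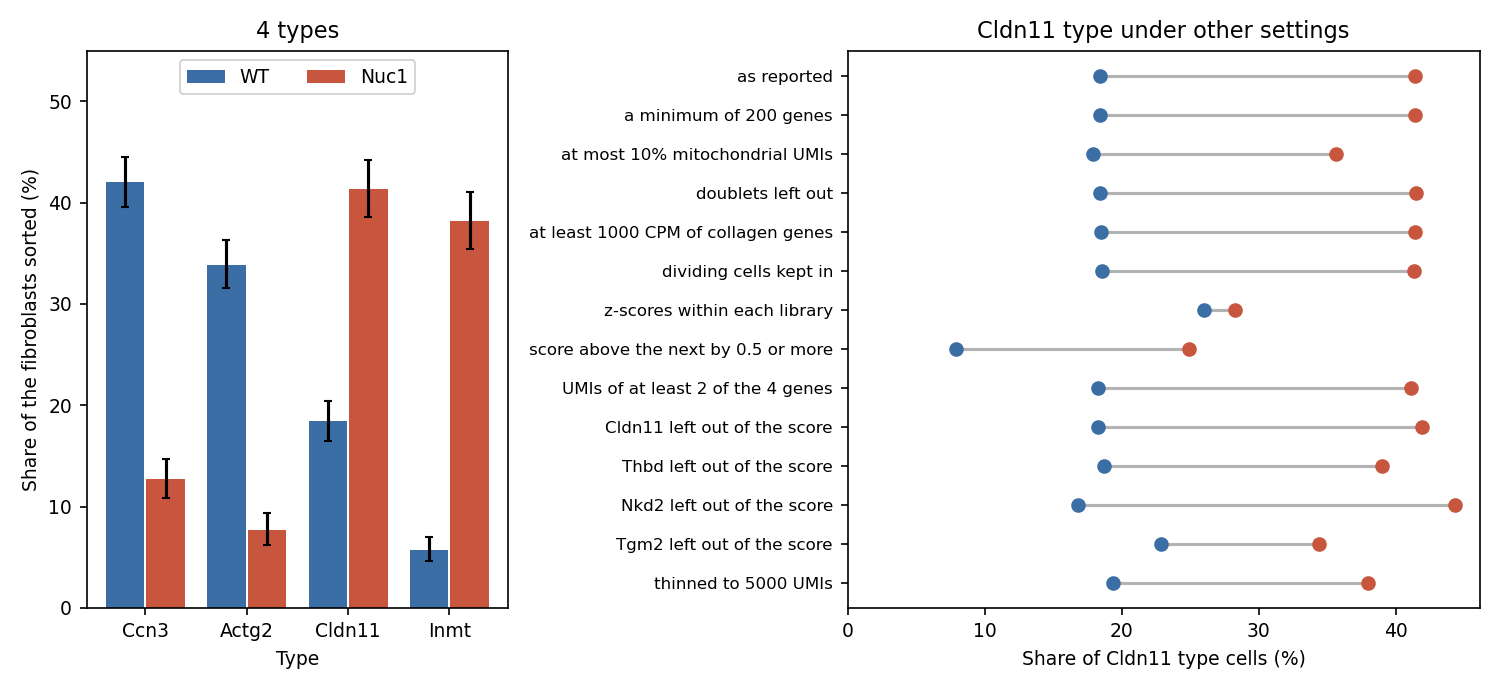
Left, share of each type among the fibroblasts sorted (vertical axis, percent) in WT (blue) and Nuc1 (red), with exact 95% binomial intervals. Right, share of Cldn11 type cells (horizontal axis, percent) under each setting of the sorting (vertical axis), where the gap between the libraries narrows from 18.4% and 41.4% as reported to 26% and 28.3% with z-scores within each library.

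Few genes outside the 16 score genes set the Cldn11 type apart. Each gene with at least 100 UMIs in the fibroblasts sorted was compared as CPM with 20 CPM added, which holds down ratios of rare genes. Of 10047 genes, 0 were at least 2-fold higher in the Cldn11 type than in each of the other 3 types in both libraries and 0 were at least 2-fold lower. By order alone, 1017 genes (10.1%) were highest in the Cldn11 type in both libraries and 366 (3.64%) were lowest. The Ccn3 type was the nearest: 5 genes (0.0498%) were at least 2-fold higher in the Cldn11 type in both libraries, and 3 (0.0299%) at least 2-fold lower. Against the Actg2 type the counts were 24 (0.239%) and 21 (0.209%), and against the Inmt type 31 (0.309%) and 91 (0.906%). The cells had been sorted on their own expression, so these counts are descriptions.

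The genes that separated the Cldn11 from the Ccn3 type were small in number. Csrp2, a LIM-domain protein gene, was at 603.5 CPM in the WT Cldn11 type and 754 in Nuc1, against 261.5 and 288 in the Ccn3 type. Mpp6, a scaffold protein gene, was at 392 and 192 CPM against 148 and 82.4, and Arl4a, a small GTPase gene, at 98.3 and 56 CPM against 30.1 and 17.5. On the other side were Tnfrsf11b, which encodes the decoy receptor osteoprotegerin, at 54.5 and 21 CPM against 139 and 84.5, and Avpr1a, a vasopressin receptor gene, at 9.255 and 15.3 CPM against 39.6 and 94.1.

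Against the Actg2 type, whose score holds the contractile gene Actg2, 6 of 13 other contractile genes (Acta2, Tagln, Myl9, Cnn1, Actn1, Tpm2) were at least 2-fold lower in the Cldn11 type in both libraries and 0 were higher, beside 0.209% of all genes lower. Cnn3, a calponin gene, was slightly higher, at 670 and 531 CPM against 579 and 487. Tagln, which encodes transgelin, was at 552 CPM in the WT Cldn11 type and 258 in Nuc1, against 3108 and 2622 in the Actg2 type. The 24 higher genes included Igfbp5, Ptn, Fbln1, Enpp2, Lepr and Tgfbi. Against the Inmt type the 31 higher genes included Alcam, Klf5, Lsr, Gap43, Sema3d, Slit2, Nrp2, Epyc and Dcn, and the 91 lower genes included Aldh1a2, Igfbp2, Spp1, Sfrp1, Apod, Apoe, Pdgfrb and Tfap2b. Dcn, the decorin gene, was at 2094 and 957.6 CPM against 942.5 and 351 in the Inmt type. Slit2, which encodes a repellent of growing axons, was at 533 and 418 CPM against 231 and 153.

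The genes with the highest smallest ratio over the 6 combinations of library and other type are given next. Nnat, the imprinted neuronatin gene, was at 274 CPM in WT and 306 in Nuc1, with a smallest log2 ratio of 0.82. Its molecules were unevenly spread: it was detected in 179 of 290 WT cells and 222 of 495 Nuc1 cells, and 1 Nuc1 cell held 577 of the 2522 UMIs. Klf5, a Krüppel-like transcription factor gene, was at 133 CPM in WT and 109 in Nuc1, against 68.2 and 52.9 in the Ccn3 type, 64.2 and 50.9 in the Actg2 type and 17.3 and 17.7 in the Inmt type. It was detected in 65.9% of the WT cells and 57% of the Nuc1 cells, and its smallest log2 ratio was 0.80. Sbspon, a somatomedin B and thrombospondin domain gene, was at 39.2 and 21.5 CPM (smallest log2 ratio 0.71), and Lsr, which encodes angulin-1 of tricellular junctions, at 50 and 38.6 CPM (0.58). Fibin, a secreted fin bud factor gene, was at 470 CPM in WT and 189 in Nuc1 (0.57). Klf5 and Lsr are both genes that epithelia also use.

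The rest of the 20 ran from Slc16a11 (0.50) down to Agpat5 (0.35). They included Pdgfc, a platelet-derived growth factor ligand gene, at 86.8 and 82.5 CPM, Gap43, a growth-cone protein gene, at 291 and 99.2 CPM, Epha3, an ephrin receptor gene, at 33.3 and 42.5 CPM, and Gpr4, a proton-sensing receptor gene, at 17.9 and 24.9 CPM. Laptm4a, a lysosomal membrane protein gene, was at 1570 and 1525 CPM. The others were Tmtc4, Alcam, Olfml2a, C1ql3, Pter, Rasl10a, Tmem100 and Fndc1. The 10 lowest genes were led by Id4, an inhibitor of DNA binding, at 34.1 CPM in WT and 11.2 in Nuc1, with its nearest ratio at −0.72. They also held Npr3, the natriuretic peptide clearance receptor gene, at 16.3 and 5.94 CPM, Eln, the elastin gene, at 61.4 and 14.2 CPM, and Snai2, a transcriptional repressor gene of mesenchyme, at 87.2 and 89.8 CPM. Rgs4, Smpd3, Copz2, Btg1, Dlc1 and Nrk completed them. Of these 30 genes, Alcam is also 1 of the 3 further markers above.

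**Figure D3:**
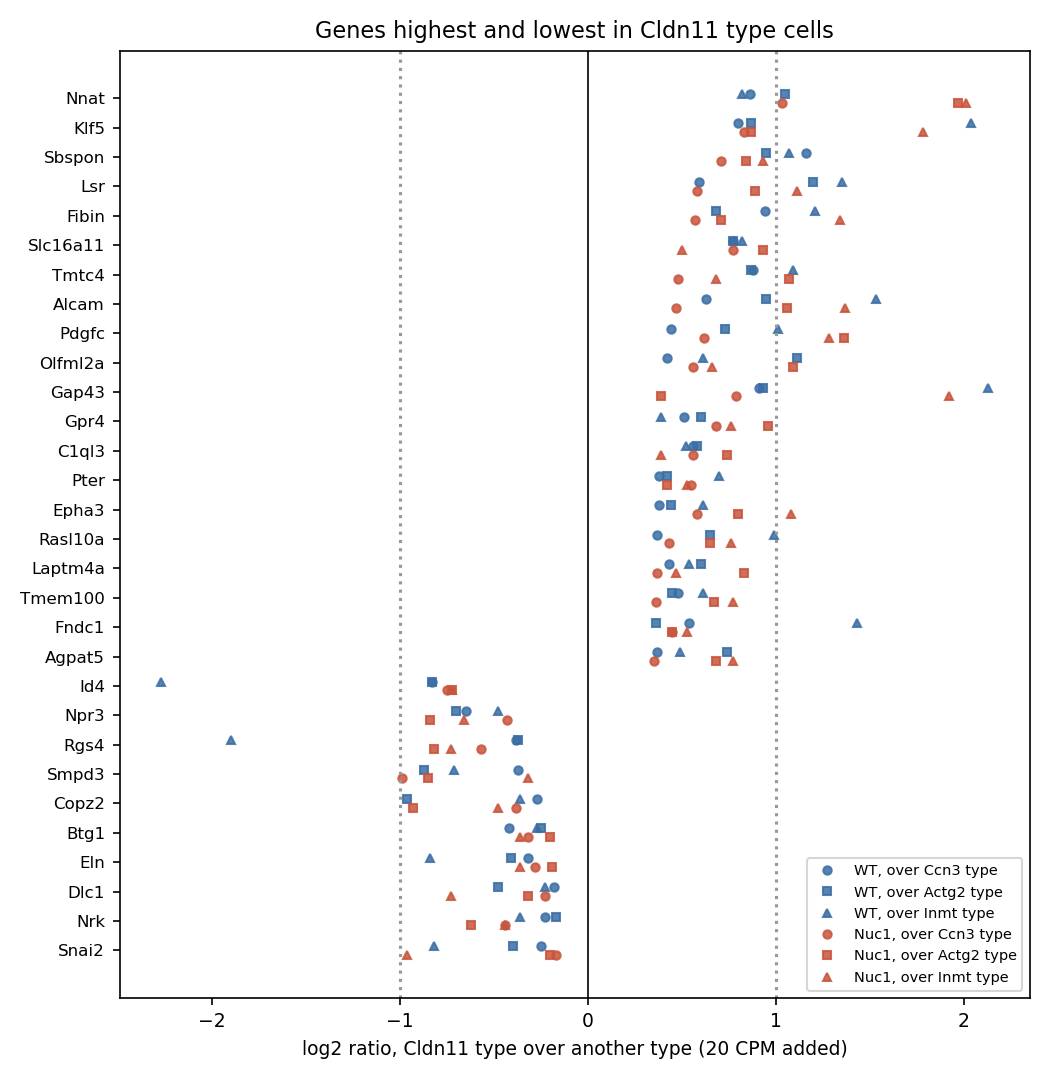
log2 ratio of the Cldn11 type over each of the other 3 types (horizontal axis, 20 CPM added to both), for the 20 genes with the highest and the 10 with the lowest nearest ratio (vertical axis); colour gives the library and the symbol the type compared. Every point of the upper 20 lies right of 0 and every point of the lower 10 left of it, and none of the 30 genes lies wholly beyond the dotted lines at 2-fold.

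Several junction genes were highest in the Cldn11 type. Of 21 tight and adherens junction genes with enough UMIs, 6 were highest there in both libraries, Cldn11, Cdh1, Cdh3, Jup and Alcam among them, and 0 were lowest, beside 10.1% and 3.64% of all genes. Cldn11 is a score gene, so the rule fixed its place. The median of their smallest log2 ratios was −0.18, beside −0.16 over all 10047 genes, so the list as a whole lay close to the background. Cdh1, the E-cadherin gene, was at 117 CPM in the WT cells against 45 in the Ccn3 type, 44.2 in the Actg2 type and 14.3 in the Inmt type, and at 17.8 CPM in Nuc1 against 11.7, 7.96 and 3.07. Jup, the plakoglobin gene, was at 40.6 and 29 CPM, and Cdh3, the P-cadherin gene, at 13.8 and 8.61. Cdh11, a cadherin gene of mesenchyme, was higher in the Inmt type (947 and 613 CPM) than in the Cldn11 type (742 and 395). Cldn2, Cldn4, Cldn6 and Cldn7 were among 11 junction genes with 0 UMIs in these cells. Of 7 gap junction genes tested 0 were highest in the Cldn11 type; Gja1, the connexin 43 gene, was at 2243 and 1771 CPM.

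Lists of meningeal layers gave no clear assignment. Of 11 arachnoid and arachnoid barrier markers tested, 3 (Cldn11, Cdh1, Klf5) were highest in the Cldn11 type in both libraries, and Cldn11 was itself used by the rule. Of 6 pial markers and 9 dural and dural border markers tested, 0 were. With 10.1% of all genes highest in the Cldn11 type, counts of 0 in lists this short are near the background. Crabp2, a retinoic acid-binding protein gene on the arachnoid list, was at 435 CPM in the WT Cldn11 type and 436 in the Inmt type, and at 379 and 272 in Nuc1. Slc6a13 and Krt19, also on that list, had 0 UMIs, and Aldh1a2, the retinoic acid synthesis gene of the arachnoid and pia, was at 5.51 and 10.3 CPM in the Cldn11 type against 103 and 136 in the Inmt type. S100a6, on the pial list, was at 3700 and 1956 CPM against 8011 and 8127 in the Actg2 type. Mgp, the matrix Gla protein gene on the dural list, was at 3457 and 4042 CPM. Krt8, on the arachnoid list and also an epithelial keratin, was at 417 and 269 CPM, while Epcam, Krt14 and Esrp1 had 0 UMIs. The cells are therefore named by their leading gene and not by a layer.

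Of 19 genes of anticoagulation and fibrinolysis tested, Thbd was the 1 highest in the Cldn11 type in both libraries, which the rule fixed, beside 10.1% of all genes. The median of the list was −0.73. F3, which encodes tissue factor, the starter of coagulation, was at 175 CPM in WT and 68.8 in Nuc1, and its WT level was much the same in the Ccn3 (172) and Actg2 (175) types and higher in the Inmt type (209.5). S100a10 and Anxa2, whose products form a plasminogen receptor, were higher in the Actg2 type, at 2456 and 1297 CPM in WT against 1453 and 897. Serpine2, which encodes protease nexin-1, was at 514 and 315 CPM against 1132 and 1183 in the Inmt type.

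Wnt pathway genes were spread over the types. Of 12 receptor genes, 3 (Fzd2, Fzd6, Lgr4) were highest in the Cldn11 type, of 10 ligands and R-spondins 2 (Wnt2b, Wnt16), of 10 inhibitors 2 (Nkd2, Sfrp4), and of 8 targets 2 (Axin2, Nkd2), beside 10.1% of all genes. Nkd2, counted in both of the last lists, is a score gene, so the rule fixed its place. Axin2, a target that feeds back on the pathway, was at 37 CPM in WT and 25.4 in Nuc1, against 7.17 and 9.57 in the Ccn3 type, 9.98 and 7.08 in the Actg2 type and 18.8 and 25.2 in the Inmt type, so that in Nuc1 the Cldn11 and Inmt types were level. Wnt16 was at 58.3 and 9.34 CPM against next highest levels of 37.1 in WT and 4.16 in Nuc1, both in the Ccn3 type. Fzd2 was at 135 and 156 CPM against 130 and 148 in the Ccn3 type. Sfrp1, a secreted inhibitor, was an Inmt type gene, at 238 and 383 CPM there against 6.1 and 33.4.

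In the TGF-beta and BMP family, 6 of 33 ligand, receptor and inhibitor genes (Tgfb2, Bmp4, Tgfbr2, Acvr1, Bmper, Ltbp4) were highest in the Cldn11 type and 3 were lowest, beside 10.1% and 3.64% of all genes. Tgfb2 was at 154 CPM in WT and 224 in Nuc1, against 136 and 119.5 in the Ccn3 type, and Bmp4 at 50.2 and 40.3 CPM against 23.3 and 31.9 in the Inmt type. Of 16 target genes 0 were highest and 4 (Ccn1, Skil, Id4, Col1a1) were lowest. Of 18 collagens 0 were highest and 4 lowest, and of 45 proteoglycans and glycoproteins 3 (Kera, Postn, Igfbp3) were highest and 5 lowest. Postn, the periostin gene, was at 295 and 72.8 CPM against 264 and 40.8 in the Inmt type. Among the 37 tested transcription factors of meninges and mesenchyme, Foxc1 (671 and 520 CPM), Zic2 (20.3 and 35.9) and Klf5 were highest in the Cldn11 type. Prrx1, Prrx2, Sox9 and Ebf1 were lowest there. So 3 were highest and 4 lowest, beside 10.1% and 3.64% of all genes. Foxc1, needed for the development of the meninges, was next highest in the Ccn3 type at 592 and 424 CPM. Of 24 guidance genes, Efna1, Plxna2, Unc5c and Epha3 were highest.

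The comparison of Nuc1 with WT within the Cldn11 type asked which genes differed between the libraries in fibroblasts chosen by the same rule. The score next in line was most often that of the Ccn3 type in WT (131 cells) and that of the Inmt type in Nuc1 (266 cells). A different make-up of the chosen cells and a difference between the genotypes cannot be told apart here. Of 8008 genes with at least 100 UMIs, 159 (1.99%) were at least 2-fold higher in Nuc1 and 286 (3.57%) at least 2-fold lower, and the median log2 ratio was −0.06. Matrix and immediate-early genes were among the lower, and the serpin gene Serping1, the fibulin gene Fbln1, Tgfbi and the score gene Tgm2 among the higher. Of the 8008 genes, 337 (4.21%) were at least 2-fold lower in Nuc1 in the Ccn3 type, 402 (5.02%) in the Actg2 type and 288 (3.6%) in the Inmt type, and these included 186, 176 and 142 of the 286 genes lower in the Cldn11 type. At least 2-fold higher were 140 (1.75%), 130 (1.62%) and 249 (3.11%), and these included 80, 68 and 63 of the 159. In the opposite direction, 2, 7 and 7 of the 159 were at least 2-fold lower in the Ccn3, Actg2 and Inmt types. Of the 286, 1, 5 and 8 were at least 2-fold higher there. The 4 types come from the same 2 libraries.

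The markers of the cells differed in both directions. Cldn11 was 1.12-fold lower in Nuc1 (log2 ratio −0.17, interval −0.22 to −0.12), with values from −0.25 to 0.18 over the alternatives, and Thbd 1.24-fold lower (−0.31, −0.39 to −0.23). In the Ccn3 type Thbd was higher in Nuc1 (0.60, 0.46 to 0.73), and it had ratios of 0.11 in the Actg2 type and −0.51 in the Inmt type. Nkd2 was 2.6-fold lower (−1.38, −1.52 to −1.24), with values from −1.49 to −0.89 over the alternatives. It was detected in 88.6% of the WT cells and 51.3% of the Nuc1 cells. Tgm2 was 3.21-fold higher (1.68, 1.55 to 1.82), detected in 69% and 94.1%, and Tgfbi 2.95-fold higher (1.56, 1.46 to 1.66). Alcam had a log2 ratio of −0.05 (−0.11 to 0.02) and Sfrp4 of 0.14 (0.02 to 0.26). Since Tgm2 and Nkd2 chose the cells, their ratios are affected by the choice; both went the same way in the Ccn3 type, Tgm2 with a log2 ratio of 1.63 and Nkd2 with −2.20, but in the Inmt type Nkd2 had a ratio of 0.02. Of the genes that the rule used to pick fibroblasts, Col1a1 (−1.07), Dcn (−1.13), Lum (−1.22) and Col3a1 (−0.46) were lower in Nuc1.

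Y-linked genes separated the libraries. Eif2s3y, a Y-linked translation factor gene, was not counted in the Cldn11 type cells of WT (0 UMIs) and had 209 UMIs in those of Nuc1, at least 42.9-fold higher against a floor of 3 UMIs in the WT sum. A UMI of Eif2s3y or Kdm5d was found in 0 of 290 WT cells, which allows up to 1.26% of cells with a UMI. In Nuc1 such a UMI was found in 112 of 495 cells (22.6%, interval 19.0 to 26.6). Over all cells kept it was found in 1 of 1968 in WT and 413 of 1793 in Nuc1. A cell without such a UMI can still be male, so the share of male cells was not estimated. Sex and genotype therefore cannot be told apart in the genes below.

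Ccl11, which encodes the eosinophil chemokine eotaxin, had 2 UMIs in the WT cells and 369 in Nuc1, a log2 ratio of 6.83 (interval 4.97 to 9.88), and was found in 24.2% of the Nuc1 cells. In the Ccn3 type it was at 2.21 and 20.8 CPM, and in the Actg2 and Inmt types of Nuc1 at 1.77 and 2.67. Tacr3, the neurokinin B receptor gene, had 2 and 275 UMIs (6.40, 4.54 to 9.46) and was at 21.2 CPM in the Ccn3 type of Nuc1. Sphkap, an anchoring protein gene, had 4 and 272 UMIs (5.39). A2m, which encodes the protease inhibitor alpha-2-macroglobulin, was at 1.77 and 42.2 CPM (4.57), and in the Inmt type at 34.55 and 119. Reg1a (5.03) and Reg3g (3.69), of the family of secreted C-type lectins, were at 1.38 and 45 CPM and at 10.6 and 137. Their molecules came from few cells: Reg1a was found in 52 of the 495 Nuc1 cells and Reg3g in 84.

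Other high ratios were those of Abcg3l3 (4.52), Syndig1 (4.06), Mrvi1 (3.90) and RT1-A1 (3.49). RT1-A1, a class I gene of the major histocompatibility complex, was at 6.3 CPM in WT and 70.7 in Nuc1, and it was higher in Nuc1 in each other type, with log2 ratios of 3.18, 3.38 and 2.79 in the Ccn3, Actg2 and Inmt types. It has close relatives in the complex that can share its reads, so its count is uncertain. In the Ccn3 type Reg3g was at 9.6 and 8.74 CPM, with an interval that held 0 (log2 ratio −0.14, interval −0.90 to 0.57).

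Among the lowest ratios, Clec3b, which encodes the plasminogen-binding tetranectin, had 220 UMIs in WT and 9 in Nuc1 (log2 ratio −5.31, interval −6.46 to −4.36), and was lower in Nuc1 in the other types too (−5.48, −4.60 and −3.95). Ccl2, a monocyte chemokine gene, was at 76 CPM in WT and 7.16 in Nuc1 (−3.41). In the Ccn3 type it was lower too (−4.09), whereas in the Actg2 type it was higher in Nuc1, at 24.9 and 156 CPM (2.65, 2.40 to 2.89). Tspan8, a tetraspanin gene, was at 214 and 24.3 CPM (−3.14), and detected in 57.9% and 14.5% of the cells. Myh1, a myosin heavy chain gene, was at 127 and 14.2 CPM (−3.16) and had about the same level in the Actg2 type of both libraries, 32.8 and 34.5. Fndc1, a fibronectin domain gene that was among the 20 highest in the Cldn11 type, was at 125 and 15.8 CPM (−2.99). Itga11, the collagen-binding integrin alpha 11 gene, was at 23.4 and 3.4 CPM (−2.79). Nedd9 (−3.24), Cyb5r1 (−2.81) and Wfdc1 (−2.77) were also in this group.

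Cdh1 closed the group, at 117 CPM in WT (interval 107 to 126) and 17.8 in Nuc1 (15.1 to 21.0), a log2 ratio of −2.71 (−2.98 to −2.45). It was found in 169 of the 290 WT cells (58.3%) and 88 of the 495 Nuc1 cells (17.8%). In the other types its log2 ratios were −1.95, −2.47 and −2.22. Of 18 junction genes tested, Cdh1 was the 1 at least 2-fold lower and Jam2 the 1 at least 2-fold higher, beside 3.57% and 1.99% of all genes. Jam2, which encodes a junctional adhesion molecule, was at 29.5 and 92.9 CPM (1.65, 1.40 to 1.92), and at 18.3 and 32.05 in the Ccn3 type. Jup had a log2 ratio of −0.48. The median over the list was −0.12, beside −0.06 over all genes.

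**Figure D4:**
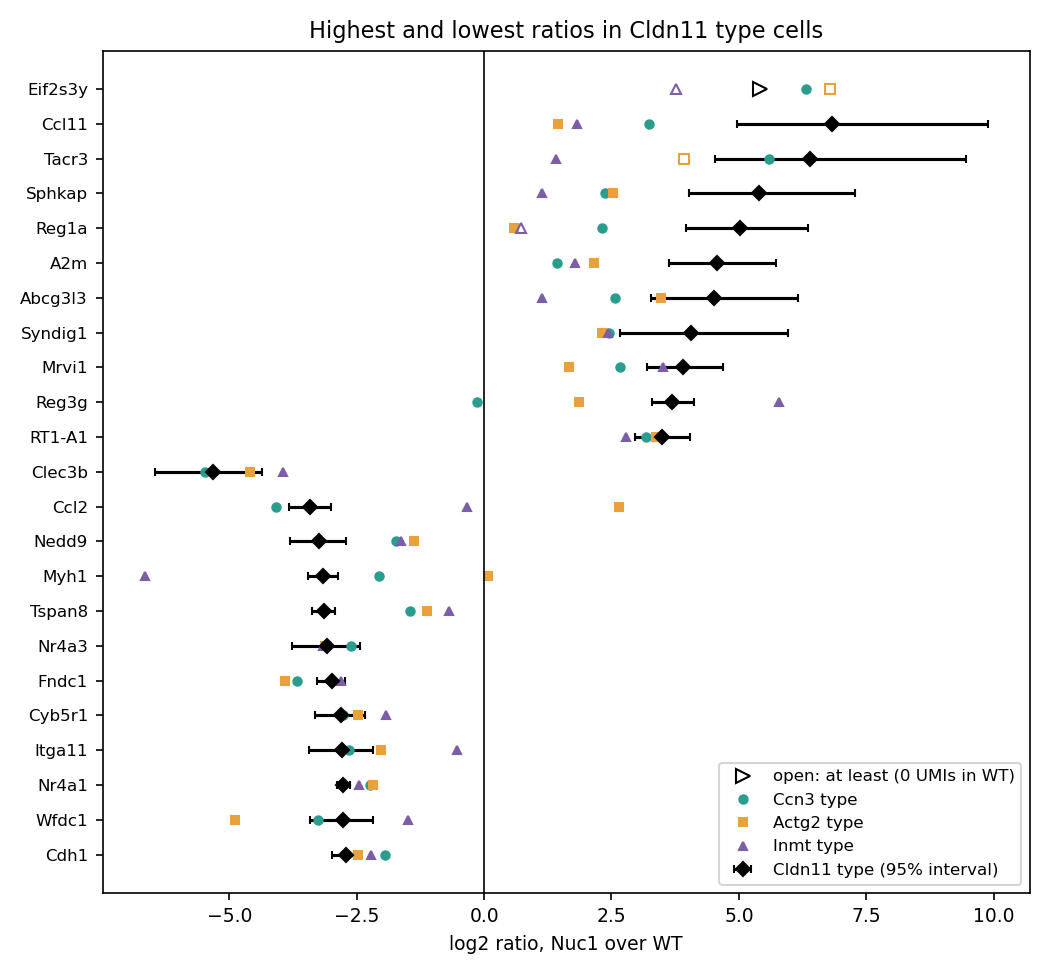
log2 ratio of Nuc1 over WT (horizontal axis) of the named genes with the highest and the lowest ratios in Cldn11 type cells (vertical axis); black diamonds are the Cldn11 type with exact 95% intervals of counting error, coloured symbols the other 3 types, and open symbols are lower bounds where WT had 0 UMIs. Symbols of the other types lie on the same side of 0 except for Ccl2 and Myh1 in the Actg2 type and Reg3g in the Ccn3 type.

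Several immediate-early genes were lower in Nuc1. Of 16 genes of the response to dissociation, 6 (Fosb, Egr2, Atf3, Nr4a1, Zfp36, Btg2) were at least 2-fold lower and 0 higher, beside 3.57% and 1.99% of all genes, with a median of −0.94 beside −0.06. Nr4a1, an orphan nuclear receptor gene induced within minutes of stimulation, was at 508 CPM in WT and 75 in Nuc1 (−2.76), and found in 93.8% and 49.5% of the cells; its relative Nr4a3 was at 24.6 and 2.91 CPM (−3.08). Fosb, a component of the AP-1 factor, was at 323 and 57 CPM (−2.50). Ier3 had the same level in both, 619 and 623 CPM (0.01). The lower level was not particular to the Cldn11 type, where the whole list summed to 8818 CPM in WT and 4481 in Nuc1. Its sums were 9198 and 5068 CPM in the Ccn3 type, 6946 and 3760 in the Actg2 type and 9590 and 5348 in the Inmt type. The part of this response in the other differences was not tested.

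Matrix genes were lower more often than higher. Of 38 proteoglycans and glycoproteins, 15 were at least 2-fold lower and 4 at least 2-fold higher, beside 3.57% and 1.99% of all genes, with a median of −0.49 beside −0.06, and of 17 collagens 6 were lower and 1, Col14a1, higher. The lower genes include the score gene Mfap5, and Dcn, Lum and Col1a1, which the rule used to select fibroblasts. Epyc, which encodes the small leucine-rich proteoglycan epiphycan, was at 774 CPM in WT and 135 in Nuc1 (−2.52, −2.62 to −2.42). Postn was at 295 and 72.8 CPM (−2.02), and Eln at 61.4 and 14.2 (−2.11). Fbln1, the fibulin-1 gene, was the counterexample, at 155 and 637 CPM (2.04, 1.93 to 2.15); it was higher in Nuc1 also in the Ccn3 type (163 and 448 CPM) and the Inmt type (431 and 794). Sparcl1, Smoc2 and Spon2 were the other 3 higher genes. Igfbp5, an insulin-like growth factor-binding protein gene, was at 1792 and 2733 CPM in the Cldn11 type (0.61), while it was lower in Nuc1 in the Ccn3 type, at 2639 and 1849. Of 14 contractile genes, Acta2, the score gene Actg2, Tagln and Lmod1 were at least 2-fold lower and Mylk higher. Tpm1 was at 2849 and 4827 CPM (0.76). The whole contractile list summed to 6002.6 CPM in WT and 7098.9 in Nuc1, so its sum was higher in Nuc1.

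Of 14 TGF-beta and BMP targets, 7 (Ccn1, Ccn2, Smad7, Id2, Id4, Pmepa1, Col1a1) were at least 2-fold lower and 1, Tgfbi, higher, beside 3.57% and 1.99% of all genes, with a median of −0.79 beside −0.06. Col1a1 was used by the rule. Ccn2, the connective tissue growth factor gene, was at 619 and 213.5 CPM (−1.54) and Pmepa1, an inhibitor induced by TGF-beta, at 173 and 42.5 (−2.03). Of the 21 ligands, receptors and inhibitors of the family, 1, Ltbp4, was 2-fold lower, and Tgfb2 had a log2 ratio of 0.54. Of 11 Wnt receptors 4 (Fzd1, Fzd4, Lrp5, Ryk) were lower and 0 higher, beside the same shares of all genes. Of 6 targets 3 (Nkd1, the score gene Nkd2, Tnfrsf19) were lower and 0 higher. Fzd4, Lrp5 and Nkd2 were under 2-fold in an alternative, with log2 ratios of −0.80, −0.84 and −0.89. Fzd1 was at 174 and 78.4 CPM (−1.15), Wnt16 at 58.3 and 9.34 (−2.64), Nkd1 at 15.6 and 3.15 (−2.30) and Sfrp1 at 6.1 and 33.4 (2.45). Axin2 had a ratio of −0.55 (−0.84 to −0.25), with values from −0.85 to 0.17 over the alternatives.

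Transcription factor genes showed a few large differences. Of 30 tested, Foxd1, Twist1, Tfap2b, Runx1 and Klf4 were at least 2-fold lower and Six4 and Ebf1 higher, beside 3.57% and 1.99% of all genes, with a median of −0.18 beside −0.06. Tfap2b, an AP-2 factor gene of neural crest derivatives, was at 177 and 37.5 CPM (−2.24, −2.43 to −2.05). Its values ran from −2.27 to −1.37 over the alternatives, and in the Inmt type it was at 393 and 348.5 CPM. Foxd1, a forkhead gene, was at 286 and 72.2 CPM (−1.99) and lower in each type. Foxc1 had a ratio of −0.37, Klf5 of −0.29 and Zic2 of 0.82.

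Of 11 retinoic acid genes tested, 2 were at least 2-fold higher and 2 lower, beside 1.99% and 3.57% of all genes, with a median of 0.07 beside −0.06. Dhrs3, a retinaldehyde reductase gene, was at 42.5 and 188 CPM (2.15) and Rarb, a retinoic acid receptor gene, at 9.845 and 22 CPM (1.16), while Rbp4 (−1.65) and Cyp26b1 (−1.53) were lower. Rarb had values from 0.75 to 1.33 over the alternatives, and so was under 2-fold in part of them. Rbp4 had −0.28 with at most 10% mitochondrial UMIs. Cyp26b1, a score gene which encodes an enzyme that clears retinoic acid, was at 13 and 4.49 CPM in the Cldn11 type, but its ratio was 0.12 in the same cells thinned to 5000 UMIs, −0.26 in cells thinned and sorted again, and 1.07 with z-scores within each library. Cyp26b1 was higher in Nuc1 in the others, at 0.773 and 16.2 CPM in the Ccn3 type, 6.33 and 19 in the Actg2 type and 128 and 569 in the Inmt type, whose score contains it. Serping1, which encodes the C1 inhibitor, was at 44.5 and 217 CPM (2.28, 2.08 to 2.49), and F3 at 175 and 68.8 (−1.35). Ptgds, the prostaglandin D synthase gene of the leptomeninges, was at 17.5 and 83.1 CPM (2.25), and in the Ccn3 type at 1.655 and 98.7. Ptgs2, which encodes the inducible cyclooxygenase, was at 95.3 and 21.1 CPM (−2.17). Ntf3, the neurotrophin-3 gene, was at 3.15 and 22.8 CPM (2.86), with values from 1.37 to 3.2 over the alternatives. Of the 16 growth factor genes tested, 2 were at least 2-fold higher and 3 lower, with a median of −0.18. Sema5a, a guidance gene, was at 12.2 and 63.3 CPM (2.37). Of the 19 guidance genes tested, 1 was at least 2-fold higher and 4 lower, with a median of −0.35. The shares over all genes were 1.99% and 3.57%.

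The genes on which the study had compared astrocytes were also measured in these fibroblasts. Lepr, the leptin receptor gene, was at 116 CPM in WT (interval 107 to 126) and 217 in Nuc1 (207 to 228), a log2 ratio of 0.90 (0.77 to 1.04). Il6st, which encodes the shared receptor chain gp130, was at 36.2 and 72.1 CPM (0.99, 0.75 to 1.24), and Jak2, a kinase gene that acts behind both receptors, at 45.1 and 67.7 (0.59, 0.36 to 0.81). Pik3ca, a phosphoinositide kinase gene, was at 65.6 and 62.2 CPM (−0.08, −0.28 to 0.13). In the other types Jak2 had log2 ratios of −0.21, −0.40 and −0.20, and Lepr of 0.83, −0.30 and −0.03. Of the 14 JAK-STAT, leptin receptor and gp130 genes tested, 1, Jak3, was at least 2-fold higher and 0 were lower, beside 1.99% and 3.57% of all genes. Jak3 had values from 0.87 to 1.33 over the alternatives, and so was under 2-fold in part of them. The median of the 14 genes was 0.49, beside −0.06 over all genes.

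Of 7 astrocyte markers tested, 3 (Gfap, Fabp7, S100b) were at least 2-fold higher in the Nuc1 cells and 0 lower, from few UMIs, beside 1.99% and 3.57% of all genes; S100b had a log2 ratio of 1.22, and of 0.70 with cells thinned to 5000 UMIs. Gfap, the astrocyte filament gene, was at 5.71 CPM in WT and 17.1 in Nuc1 (1.58), from 29 and 141 UMIs; Fabp7 was at 3.94 and 16 CPM (2.02). The 10 astrocyte markers summed to 2382 CPM in WT and 1962 in Nuc1, most of it from Gja1, so the sum was lower in Nuc1, and Aldoc had a log2 ratio of −0.29. Gfap was at a like level in the Ccn3 (5.41 and 17.5 CPM) and Actg2 (4.51 and 16.4 CPM) types, and at 15 and 14.1 CPM in the Inmt type. Free astrocyte RNA in the droplets and expression by these cells cannot be told apart at such levels. The rule removed cells by Gfap, Fabp7 and Aqp4, and their part in the other differences was not tested.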

How the data were processed

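The deposited files hold raw counts (UMIs per gene and cell barcode), made by the authors with Cell Ranger 3.1.0 and STAR 2.7, and analysed by them with Seurat 3.1.0 and 3.1.1, per the submitters' processing notes; the genome build is not given in the sources used here. The members, gene lists and comparisons were chosen with earlier results of these data known. Of 2107 WT and 1929 Nuc1 barcodes, 1968 and 1793 passed the quality filter, and the rule given in the report then sorted 1576 and 1196 fibroblasts. Counts were summed per library and type. Levels are CPM of these sums, with exact Poisson intervals; shares have exact binomial (Clopper-Pearson) intervals and ratios exact conditional ones, all at 95%. PCR and cell-to-cell variation are outside these intervals. UMIs of a 3′ kit do not scale with gene length, so levels were compared within a gene. For counts of 2-fold genes 0.5 UMIs were added to each sum. Sums of 5078595 (WT) and 8243477 (Nuc1) UMIs lay behind the Cldn11 type cells.

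The text names the 16 score genes, the filter genes, Alcam, Sfrp4 and Tgfbi, and the study's genes. It names the 20 genes with the highest and 10 with the lowest nearest ratio to the other types. The 12 highest and 12 lowest Nuc1 over WT ratios are also named. They leave out score, mitochondrial, ribosomal and unnamed genes and genes whose sign changed on thinning to 5000 UMIs. For the lists reported, abundant and most different members are named, and some lists have no member named. Genes of pairwise counts, and some list members, were chosen for naming after their values were seen. Scrublet, run in scanpy 1.11.5, called 2 WT and 13 Nuc1 cells as doublets (0 and 1 of the Cldn11 type); so few calls mean that doublets can remain. The ratios and their intervals were tested on simulated data, counts drawn with known ratios. Alternatives were the cell filters, the score, thinning, scaling (TMM of edgeR 4.0.16 in R 4.3.3, or a median of 0), the UMI minimum and the added CPM. Python 3.11.15, numpy 2.4.6, scipy 1.17.1 and matplotlib 3.10.9 were used. Of 772 genes on 48 lists, 744 were matched by symbol. Some genes that the rule names are not reported here.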

Additional observations from a re-analysis of the deposited data

Results flagged for a closer look

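In 5 of the genes named in this report, the ratio of Nuc1 over WT was at least 2-fold one way in the Cldn11 type. It was at least 2-fold the other way in another type of fibroblast, with both counting intervals off 0. Over all genes tested such reversals were more numerous, with the counts given above. With 1 library per genotype the difference between types was not tested. Ccl2 had a log2 ratio of −3.41 in the Cldn11 type and of 2.65 in the Actg2 type (232 UMIs in WT and 352 in Nuc1). Cyp26b1 had −1.53 in the Cldn11 type, against 4.39 in the Ccn3 type (7 and 39 UMIs), 1.59 in the Actg2 type (59 and 43 UMIs) and 2.15 in the Inmt type (171 and 4263 UMIs). Cyp26b1 is a gene of the Inmt score and so takes part in the choice of cells, and its ratio in the Cldn11 type was 0.12 in the same cells thinned to 5000 UMIs, −0.26 in cells thinned and sorted again, and 1.07 with z-scores within each library. The other 3 genes differed from the Inmt type: Igfbp3 had −1.17 in the Cldn11 type and 1.09 in the Inmt type (11 and 132 UMIs), Rbp4 −1.65 and 1.13 (17 and 209 UMIs), and S100b 1.22 and −1.08 (78 and 207 UMIs). Each of these 3 was under 2-fold in the Cldn11 type in an alternative: Igfbp3 had −0.33 with z-scores within each library, Rbp4 −0.28 with at most 10% mitochondrial UMIs, and S100b 0.70 with cells thinned to 5000 UMIs. Over the alternatives Ccl2 lay between −3.70 and −2.86.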

How the results depend on the processing

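The share of Cldn11 type cells was 23 percentage points higher in Nuc1 than in WT as reported. The difference was 17.8 points with at most 10% mitochondrial UMIs, 17 with a lead of 0.5 or more over the next score, 18.6 after thinning to 5000 UMIs, 27.6 without Nkd2 in the score, 11.5 without Tgm2 and 2.33 with z-scores within each library; under the other settings of the cells it ran from 20.3 to 23.6. The counts of genes at least 2-fold apart were 159 higher and 286 lower as reported. With cells thinned and sorted again they were 73 and 150, and a minimum of 20 UMIs gave 438 and 570; the remaining settings gave 128 to 176 and 224 to 291, with 176 and 249 under TMM scaling. The counts of genes at least 2-fold higher or lower than in each other type were 0, except for Nnat (1 gene) with a lead of 0.5 or more, and for Sbspon (1 higher) and Id4 (1 lower) with 5 CPM added. Cyp26b1 turned from a log2 ratio of −1.53 to 1.07 with z-scores within each library. The causes were not tested. No paired analysis was possible because the study has a single library on either side, so no replicate could be left out. Of 93 named genes at least 2-fold apart between the libraries, 92 kept their sign under the 15 alternatives that give a ratio for each gene. Cyp26b1 was the exception. The 12 highest and 12 lowest ratios were named without genes whose sign changed on thinning, so part of this count followed from the choice. A kept sign is not a kept 2-fold call. Tagln (−0.71), Ltbp4 (−0.75), Twist1 (−0.97), Mylk (0.86) and Smoc2 (0.93), for example, were under 2-fold in an alternative. Depth limits rare genes: 3 UMIs correspond to 0.591 CPM in the WT Cldn11 type cells and 0.364 in Nuc1.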
